A study of Mus musculus with 8 samples.

Results

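The 4 loop arrays of the series, of its 8 samples in all, set amplified against un-amplified RNA of mouse muscle in every hybridisation. They were taken as all samples whose labels place them in the loop, so no measured value entered the choice. Each array was a small spotted array with 22 features of 6 spots, of which 20 carry a gene name, and the dyes Cy3 and Cy5 told its paired RNAs apart. The soleus array paired amplified soleus RNA in Cy3 with un-amplified soleus RNA in Cy5, and the FDB array did the same for the flexor digitorum brevis (FDB). The first crossed array paired un-amplified soleus RNA in Cy3 with amplified FDB RNA in Cy5. The second crossed array paired un-amplified FDB RNA in Cy3 with amplified soleus RNA in Cy5, which closed the ring.

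All RNA came from CD-1 mice, an outbred strain, aged 4 to 5 weeks, and was extracted with Trizol. The soleus stands for slow muscle and the FDB, a flexor of the toes, for fast muscle. Both are whole muscles of mixed fibres. Un-amplified RNA was 10 micrograms of total RNA copied with reverse transcriptase into amino-allyl cDNA from an oligo(dT) primer, per the labels. The amplification kit, which yields labelled cRNA, is named in the labels of the other arrays of the series and not in those of the loop. Amplification and the kind of labelled target therefore cannot be told apart. The labels do not give the number of animals or say whether the arrays used separate extracts, so the p-values rest on these arrays alone and do not cover the spread between animals.

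Linear amplification of mRNA copies the poly(A) RNA into double-stranded cDNA carrying a phage promoter and transcribes it into many antisense copies. It lets a small muscle be measured on an array, and its use rests on the ratios between transcripts being kept. Slow fibres are known for the slow myosin heavy chain, slow troponins and oxidative metabolism, and fast fibres for fast myosins, fast troponins and parvalbumin. Most named genes on the array belong to this contractile and calcium-handling machinery.

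Of the 528 spots that carry a probe on these arrays, 422 were usable in both channels. The share was lowest on the FDB array, with 94 of 132 spots, and highest on the first crossed array, with 116. On the FDB array 11 of the 42 spots in the first 3 rows of the grid were usable, against 30 to 36 on the other arrays. Unusable spots were more frequent in the amplified than the un-amplified channel on every array. They numbered 19 against 7 on the soleus array, 36 against 30 on the FDB array, and 13 against 4 and 24 against 11 on the crossed arrays. A spot with signal in un-amplified RNA alone therefore gave no ratio. The median feature was dimmer in the amplified channel on every array, with log2 amplified/un-amplified ratios of -0.94 on the soleus array, -0.51 on the FDB array and -0.34 and -0.72 on the crossed arrays. Each array was centred on that median, so every ratio below is relative to the median feature of its array and not an absolute yield. The median SD between spots of a feature was 0.19 log2 units on the soleus array, 0.12 on the FDB array, 0.35 on the first crossed array and 0.14 on the second. Precision is limited by the small number of arrays. As a check of the muscle labels, log2 FDB/soleus ratios in the loop were below 0 for 5 of 6 soleus markers and above 0 for 4 of 6 FDB markers, with -2.94 for Myh7, 2.54 for Pvalb and 2.52 for Myh1. The soleus marker Pln (0.057) and the fast markers Myh4 (-1.32) and Tnni2 (-0.33) went against their label. In whole muscle, fewer fibres of a type and less RNA per fibre cannot be told apart.

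The design asks which genes gave relatively more or less signal after amplification. Of 21 features with a ratio on all 4 arrays, 9 (42.9%) passed limma's test with terms for muscle, amplification and dye, at a Benjamini-Hochberg adjusted p below 0.05. There were 6 higher in amplified RNA (28.6%) and 3 lower (14.3%). The higher ones were the fast troponin I gene Tnni2, the slow myosin gene Myh7, the slow troponin C gene Tnnc1, the myoglobin gene Mb, the skeletal actin gene Acta1 and the unnamed feature of probes 19 to 24. The lower ones were the muscle LIM protein gene Csrp3, the cardiac myosin gene Myh6 and the unnamed feature of probes 97 to 102. All 9 were past 2-fold in the same direction in the soleus and in the FDB. Of the 9, 8 had the same direction on all 4 arrays, as did 11 of all 21 features. The fitted effect is the mean of the soleus and FDB effects from the same arrays, so these counts are no separate support.

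The residual of this fit has 1 degree of freedom per feature and is the gap between the soleus and FDB effects. The variance was pooled completely over features, which gave each the same SE of 0.52, and without that pooling 0 of 21 passed limma's linear fit (2 had an unadjusted p below 0.05). The calls also ended under loess, where 0 passed limma's test and 6 had an unadjusted p below 0.05, and all 9 kept their direction there. The SE differed by feature under loess (0.32 for Csrp3, 0.31 for Tnni2), so the variance was not pooled completely there. Leaving out 1 array at a time, without a dye term, gave 12 calls without the soleus array and 8 without the FDB array. It left Csrp3 as the 1 call without either crossed array.

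**Figure D1:**
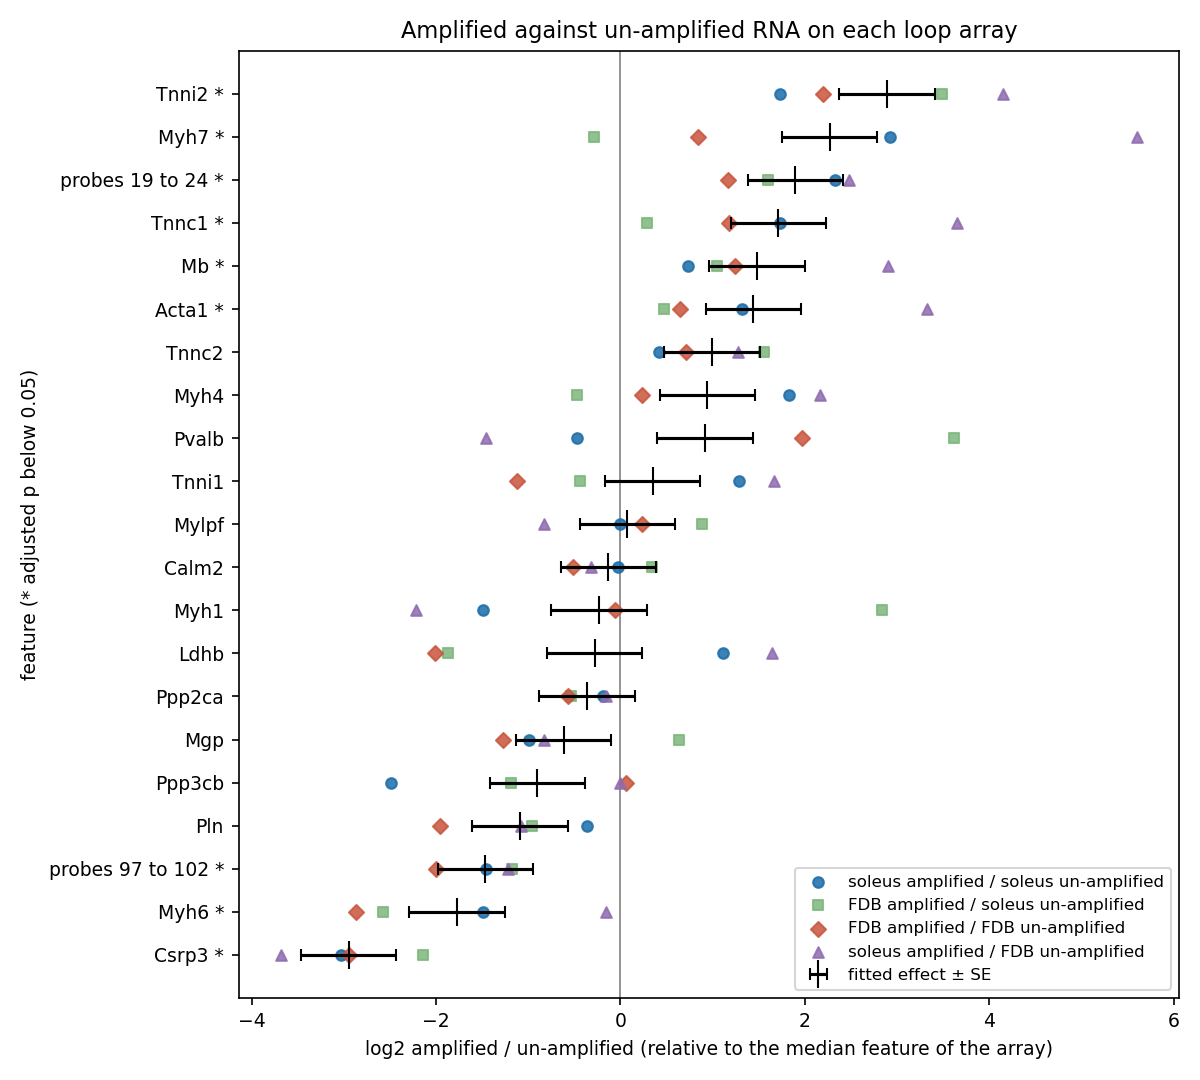
Log2 amplified/un-amplified ratio of 21 features (vertical axis, in order of the fitted effect) on each of the 4 loop arrays (coloured points) with the fitted effect and its SE (black). Csrp3 lies left of 0 and Tnni2 right of 0 on all 4 arrays, while Myh1, Pvalb and Ldhb spread over both sides.

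Troponins sit on the thin filament, where troponin C binds calcium and troponin I blocks contraction until it does. Tnni2, the fast-fibre troponin I, had log2 amplified/un-amplified ratios of 1.73 on the soleus array, 2.20 on the FDB array, and 3.48 and 4.15 on the crossed arrays. It was high in the amplified channel on every array and in both dye orientations. Over the 4 arrays the fitted effect was 7.42-fold in favour of amplified RNA (log2 2.89, SE 0.52, limma adjusted p = 0.000156). The effect corrected for dye was 2.66 in the soleus and 3.12 in the FDB, and Tnni2 had the dye effect of greatest size, -0.92 (Cy3 over Cy5). In signal, the mean integral intensity of its spots on the soleus array, in units of 1e6, was 3.61 in amplified and 2.25 in un-amplified RNA. On the FDB array it was 5.48 and 1.67. On the second crossed array, which pairs different muscles, it was 3.20 in amplified soleus RNA and 0.305 in un-amplified FDB RNA.

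Tnnc1 encodes the troponin C shared by slow fibres and heart, and it had ratios of 1.73 on the soleus array, 1.18 on the FDB array, and 0.28 and 3.65 on the crossed arrays. All were above 0, with a wide gap between the crossed arrays, which also carry the difference between muscles. The fitted effect was 3.28-fold higher (log2 1.71, SE 0.52, limma adjusted p = 0.0115), with 1.99 in the soleus and 1.44 in the FDB. Tnnc2, the fast troponin C, had ratios of 0.42, 0.72, 1.56 and 1.28 on the soleus, FDB and crossed arrays. These were above 0 on every array too, but its fitted effect of 0.99 did not pass (limma adjusted p = 0.131).

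Tnni1 encodes the slow troponin I. Its ratios were 1.29 on the soleus array and -1.12 on the FDB array, and -0.44 and 1.67 on the crossed arrays. Amplified soleus RNA was on the high side and amplified FDB RNA on the low side. The crossed values also carry the muscle difference, so the gap rests on the soleus and FDB arrays alone. The fitted effect was 0.35 (adjusted p = 0.624), and the effects by muscle were 1.56 and -0.85. The spot SEs of those effects were 0.04 each, so the gap between the muscles was wider than the spread between spots. With 1 array per muscle it has no replicate check.

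Myosin heavy chains are the motors of the thick filament. Myh7, the chain of slow and cardiac fibres, had ratios of 2.92 on the soleus array, 0.84 on the FDB array, and -0.28 and 5.60 on the crossed arrays. It was the 1 called feature whose arrays did not all go one way, and the value below 0 stood on the array of amplified FDB against un-amplified soleus RNA. The fitted effect was 4.82-fold in favour of amplified RNA (log2 2.27, SE 0.52, limma adjusted p = 0.00178). By muscle it was 9.90-fold in the soleus and 2.35-fold in the FDB. Under loess the order turned, with log2 effects of 1.62 in the soleus and 2.43 in the FDB.

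Myh6, the alpha chain of heart muscle, fell by 1.77 on the log2 scale, or 3.42-fold (SE 0.52, limma adjusted p = 0.0105). Its ratios were -1.49, -2.87, -2.57 and -0.16 on the soleus, FDB and crossed arrays, all below 0. The feature was dim, with mean integral intensities in the amplified channel between 0.0258 and 0.0536 (units of 1e6), and 2 to 5 of its 6 spots were usable on an array. It could not be fitted once spots below the 5th percentile of a channel were left out, or once the spots of grid rows 1 to 3 were.

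The fast chains Myh1 and Myh4, of IIx and IIb fibres, did not pass the test. Myh1 had ratios of -1.49, -0.06, 2.83 and -2.21 on the soleus, FDB and crossed arrays, with a fitted effect of -0.23 (adjusted p = 0.726). The 1 high value came from the array with amplified FDB RNA against un-amplified soleus RNA. Myh4 had ratios of 1.83, 0.23, -0.47 and 2.17 on the same arrays and a fitted effect of 0.94 (adjusted p = 0.143). For Myh4 the values above 1 both came from amplified soleus RNA, but the crossed value also carries the muscle difference. Mylpf, the fast regulatory light chain, had ratios of 0.00, 0.24, 0.89 and -0.83 and a fitted effect of 0.08 (adjusted p = 0.886). Its crossed arrays stood on opposite sides of 0, and under loess its fitted effect was -1.0 (limma adjusted p = 0.0963).

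By list, the slow contractile genes had 2 of 3 measured members called higher, Myh7 and Tnnc1, and 0 lower, with a median effect of 1.71. The fast contractile genes had 1 of 5 called higher, Tnni2, and 0 lower, with a median of 0.94. Over all 21 features 6 were called higher (28.6%) and 3 lower (14.3%), with a median of 0.08, so the share of fast genes called higher was close to that of all features. The lists were drawn up with earlier results of these data known.

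Acta1 encodes the actin of skeletal muscle thin filaments, and its ratios were 1.32 on the soleus array, 0.65 on the FDB array, and 0.48 and 3.32 on the crossed arrays. All were above 0, and the value on the second crossed array stood far above the others. The fitted effect was 2.71-fold higher (log2 1.44, SE 0.52, limma adjusted p = 0.0257). Saturated pixels lay in 3 of its 6 usable spots on the soleus array, 1 of 6 on the first crossed array and 1 of 3 on the FDB array. Acta1 was also called without saturated spots.

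Csrp3 encodes the muscle LIM protein of the Z-disc. After median centring its effect differed least between the muscles of the 21 features. Its ratios were -3.02 on the soleus array, -2.95 on the FDB array, and -2.14 and -3.68 on the crossed arrays, all far below 0. The fitted effect fell by 2.95 on the log2 scale, which is 7.71-fold (SE 0.52, limma adjusted p = 0.000156). The soleus and FDB effects were -2.99 and -2.91, a difference of 0.08 with a spot SE of 0.06. In the alternatives that difference ran from 0.035 to 1.16 and was widest under loess, with -2.64 in the soleus and -1.48 in the FDB. On the soleus array its mean integral intensity was 0.0753 in amplified and 1.18 in un-amplified RNA (units of 1e6), and on the FDB array 0.178 and 1.94. On the crossed arrays it was 0.0887 and 0.495, and 0.0384 and 0.813. The value of 0.0384 was below Myh6 in that channel (0.0442) and below spots without a probe at column 1, rows 7 to 9 (0.0450 to 0.0497). On the soleus array 4 of the 6 Csrp3 spots were usable, and the amplified integrals of probes 113 and 114 were 0. Csrp3 was called in 17 of the 19 alternatives with a test, the exceptions being loess and the fit with its own variance.

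Myoglobin stores oxygen in slow and oxidative fibres, and its gene Mb had ratios of 0.73 on the soleus array, 1.25 on the FDB array, and 1.05 and 2.90 on the crossed arrays. All were above 0, and the fitted effect was 2.79-fold higher (log2 1.48, SE 0.52, limma adjusted p = 0.0257). Under loess it was 0.20. Ldhb, the lactate dehydrogenase subunit of heart and slow muscle, went opposite ways by muscle, with ratios of 1.11 on the soleus array, -2.01 on the FDB array, and -1.87 and 1.64 on the crossed arrays. Values above 0 came from amplified soleus RNA and values below 0 from amplified FDB RNA. The crossed values also carry the muscle difference (log2 FDB/soleus -1.76), so the gap rests on the soleus and FDB arrays alone. The effects by muscle were 1.28 and -1.84, and the fitted mean of -0.28 did not pass (adjusted p = 0.692).

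Parvalbumin buffers calcium in fast fibres, and phospholamban restrains the calcium pump in slow and cardiac ones. Pvalb had ratios of -0.47 on the soleus array, 1.97 on the FDB array, and 3.62 and -1.45 on the crossed arrays. Both arrays with amplified FDB RNA were above 0 and both with amplified soleus RNA below it. The crossed values also carry the muscle difference (log2 FDB/soleus 2.54), so the gap rests on the soleus and FDB arrays alone. The effect on Pvalb was -0.30 in the soleus and 2.14, or 4.40-fold, in the FDB. The mean of 0.92 did not pass (adjusted p = 0.143). Pln had ratios of -0.36, -1.95, -0.96 and -1.08 on the soleus, FDB and crossed arrays, all below 0. Its effect of -1.09 had an unadjusted p of 0.0472 and did not pass after adjustment (0.0991). Pln was the dimmest of the 21 features tested, with mean integral intensities of 0.0218 to 0.0358 (units of 1e6) in the amplified channel.

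Calm2, a calmodulin gene, and Ppp3cb, a catalytic subunit of the phosphatase calcineurin, belong to calcium signalling. Ppp3cb had ratios of -2.49 on the soleus array, 0.06 on the FDB array, and -1.18 and 0.00 on the crossed arrays. The low values were those of the arrays with un-amplified soleus RNA, but the crossed value also carries the muscle difference. The effects on Ppp3cb were -2.18 in the soleus and 0.37 in the FDB, with a mean of -0.90 that did not pass (adjusted p = 0.143). Calm2 stayed near the array median on all arrays, between -0.51 and 0.34, and had a fitted effect of -0.13 (adjusted p = 0.845). CAMTA1, a calmodulin-binding transcription activator, had 7 usable spots, 1 on the first crossed array (-2.43) and 6 on the FDB array (-2.74), and no test. On the soleus array all its spots were unusable because amplified integrals were 0, while un-amplified integrals were 272533 to 308524. With unusable spots kept, and each 0 replaced by the lowest positive value of its channel, its effect was -2.72 (limma adjusted p = 0.0211). On the soleus array its amplified value was the substituted one alone. The effect and its p-value are therefore partly set by the substitution and are no measure of CAMTA1 in the soleus.

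Matrix Gla protein, from the gene Mgp, inhibits calcification and is made by connective tissue and vessel walls. Mgp had ratios of -0.99, -1.27, 0.64 and -0.83 on the soleus, FDB and crossed arrays and a fitted effect of -0.62 (adjusted p = 0.346). Ppp2ca, the catalytic subunit of another phosphatase, had -0.19, -0.57, -0.54 and -0.15 and a fitted effect of -0.36 (adjusted p = 0.624). Its values were below 0 on all arrays, yet the fitted effect was smaller than its SE. Markers of endothelium, blood, nerve, fat and immune cells (0 of 9 listed) were not on the array. The share of other cells in either muscle was not tested.

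Both features without a gene name went one way on every array. That of probes 19 to 24 had ratios of 2.33 on the soleus array, 1.17 on the FDB array, and 1.60 and 2.48 on the crossed arrays. All were above 0, with a fitted effect 3.72-fold higher (log2 1.90, SE 0.52, limma adjusted p = 0.00749). That of probes 97 to 102 had ratios of -1.46, -2.0, -1.18 and -1.22. All were below 0, and the fitted effect fell by 1.46 on the log2 scale, or 2.76-fold (SE 0.52, limma adjusted p = 0.0257).

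The loop also gives the effect of amplification in each muscle apart, as the ratio of the soleus array or the FDB array minus the dye effect. In the soleus 13 of 21 features were past 2-fold (61.9%), 9 higher (42.9%) and 4 lower (19%) in amplified RNA. In the FDB 13 were past 2-fold as well (61.9%), 8 higher (38.1%) and 5 lower (23.8%). The features past 2-fold in both muscles in the same direction numbered 9, and these were the 9 that passed the test above. That test used the same arrays, and its fitted effect is the mean of the effects in the soleus and the FDB. Under loess the soleus effect of Mb was -0.17 and the FDB effect of Acta1 -0.05, against the direction of their means. Across the 21 features, which are not independent replicates, Pearson's r between the uncorrected ratios of the soleus array and the FDB array was 0.573 and Spearman's rho 0.577. These arrays share no kind of RNA by their labels, but both carry amplified RNA in Cy3 and so share each feature's dye effect. Between the crossed arrays, whose ratios hold the muscle difference with opposite sign, r was 0.167.

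The soleus and FDB effects pointed opposite ways in 7 of 21 features, which were Ppp3cb, Ldhb, Pvalb, Tnni1, Myh1, Calm2 and Mylpf. The widest gap was that of Ldhb, with an FDB minus soleus difference of -3.12 (spot SE 0.05), followed by Ppp3cb at 2.55 (0.04), Pvalb at 2.44 (0.10) and Tnni1 at -2.41 (0.05). Ldhb and Pvalb stayed opposite in all 13 alternatives that give both effects, Tnni1 in 12, Ppp3cb in 11, Myh1 in 10, Mylpf in 9 and Calm2 in 4. For Mylpf and Calm2 the effects by muscle lay between -0.37 and 0.19. These differences rest on 1 array per muscle, and the SE covers spots of that array only.

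**Figure D2:**
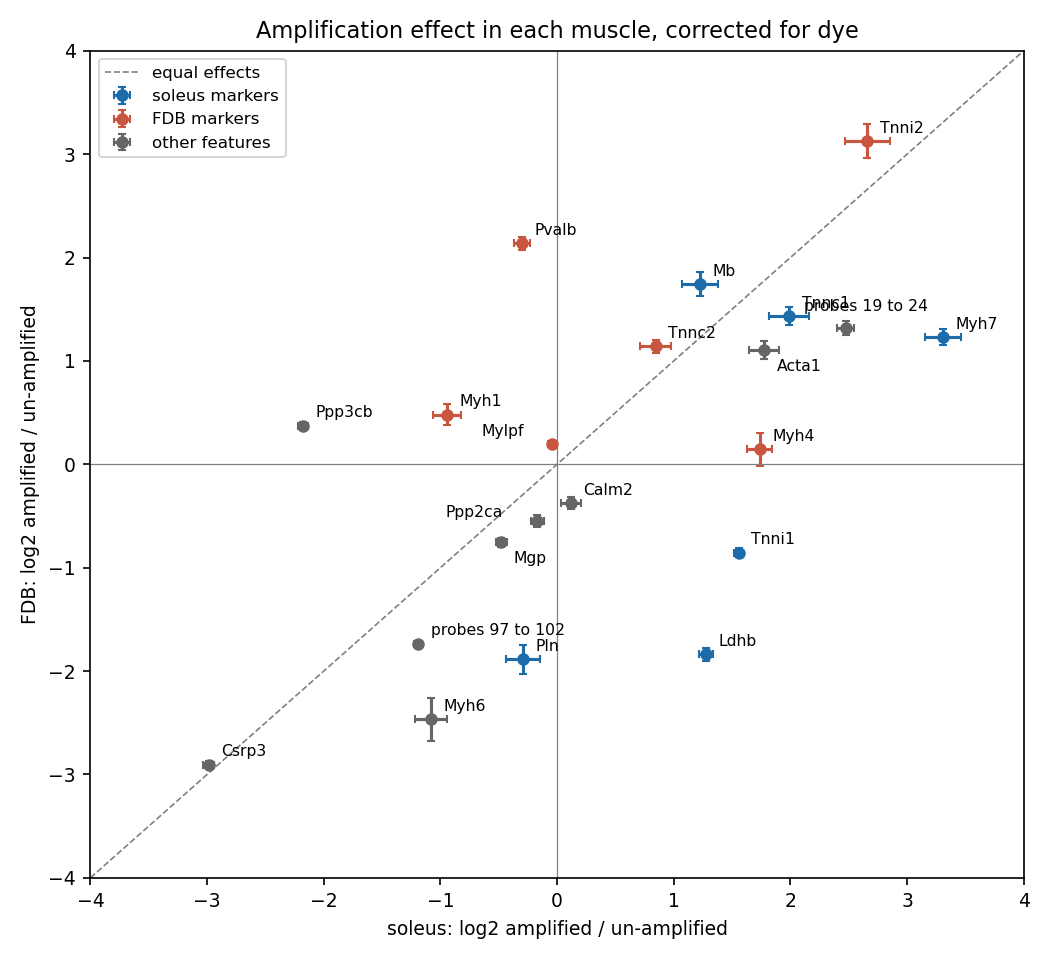
Amplification effect in the FDB (vertical axis, log2 amplified/un-amplified) against that in the soleus (horizontal axis), after median centring and corrected for dye, for 21 features. Bars are SEs over spots. Most blue soleus markers lie below the dashed line of equal effects and most red FDB markers above it. Most features that mark neither muscle also lie below the line, while Csrp3 lies on it.

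Ordered by muscle type, the soleus effect exceeded the FDB effect for 5 of 6 soleus markers (Myh7, Tnni1, Tnnc1, Pln and Ldhb). Mb was the exception, with 1.22 in the soleus and 1.74 in the FDB. The FDB effect exceeded the soleus effect for 5 of 6 FDB markers (Myh1, Pvalb, Tnni2, Tnnc2 and Mylpf), and Myh4 went the other way, with 1.74 in the soleus and 0.14 in the FDB. Over all 21 features the soleus effect was the larger in 13 and the FDB effect in 8. Of the features that mark neither muscle, it was also the larger for Acta1, Myh6, both unnamed features, Ppp2ca, Mgp and Calm2. The FDB effect was the larger for Csrp3 and Ppp3cb. A larger soleus effect was therefore not particular to the soleus markers. Under loess the counts fell to 2 of 6 for soleus markers and 4 of 6 for FDB markers. The same differences, read as fast/slow ratios, were -3.32 in amplified and -0.20 in un-amplified RNA for Ldhb, and 3.76 and 1.32 for Pvalb. The ratio was wider in amplified RNA in 14 of 21 features and not in the others. It was narrower for Mb (-0.67 and -1.18) and Tnni2 (-0.10 and -0.56), and turned for Ppp3cb (0.69 and -1.87).

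Intensity moved with the effect. Across the 21 features Pearson's r between the fitted effect and the mean log2 intensity of both channels was 0.595 and Spearman's rho 0.665. After loess, which removes a trend with intensity within each array, they were 0.070 and 0.103. The 7 brightest features all had effects above 0, from 0.08 to 1.90, while 1 of the 7 dimmest did, Myh4. After loess the log2 effects of Tnni2, Myh7 and Csrp3 were 1.94, 2.02 and -2.06 (limma adjusted p = 0.0963 each). Myh4, not called, rose from 0.94 to 1.81 there (limma adjusted p = 0.0963), with 2.06 in the soleus and 1.56 in the FDB. The other called features were all less than their median-centred size by over 1.5 times, with Myh6 at -0.82, Tnnc1 at 0.71, Mb at 0.20, Acta1 at 0.27, probes 19 to 24 at 1.02 and probes 97 to 102 at -0.79. The part of intensity in the called effects was not tested.

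**Figure D3:**
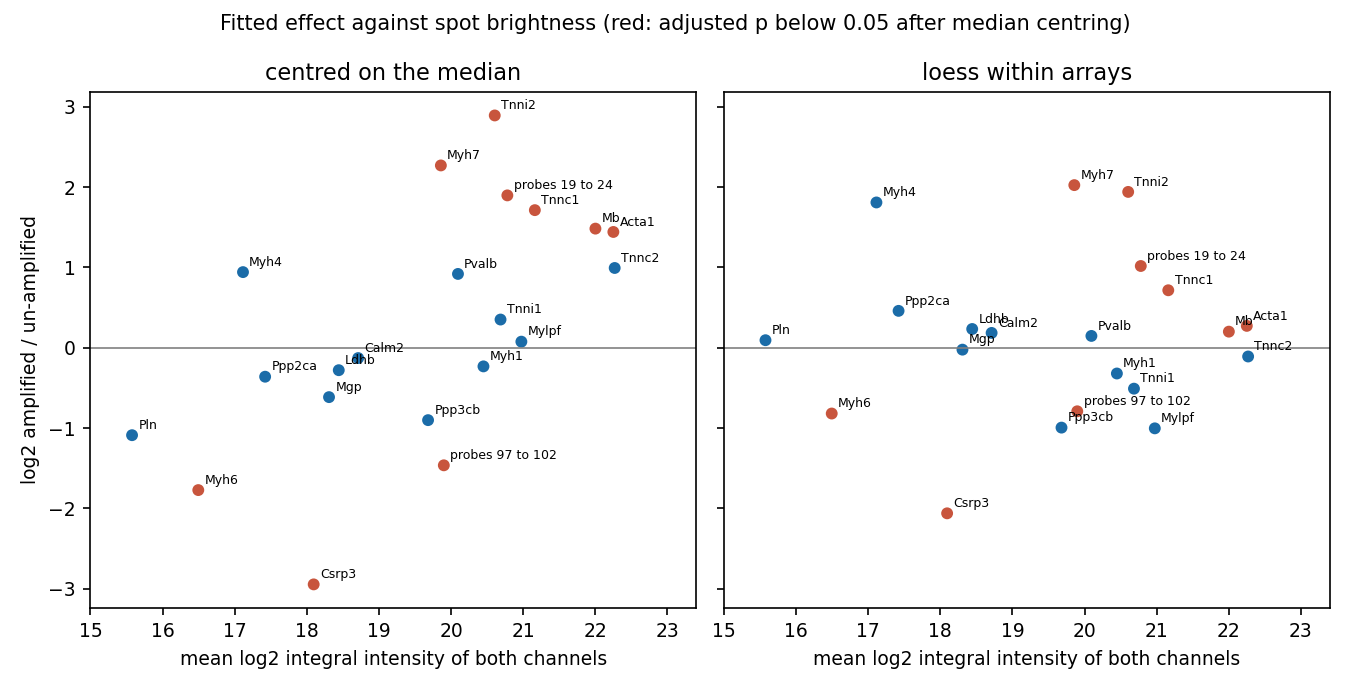
Fitted log2 amplified/un-amplified effect (vertical axis) against the mean log2 integral intensity of both channels (horizontal axis) for 21 features, after median centring (left) and after loess within arrays (right). Red points are the 9 features called after median centring. The upward trend on the left is absent on the right, where Tnni2, Myh7 and Csrp3 remain far from 0. Myh4, which was not called, also lies far above 0 on the right.

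The channels also differed in background. The deposited background integral was 0 in 50 to 57 of the usable spots of each array in the amplified channel, and in 0 usable spots in the un-amplified channel. This followed the RNA and not the dye, since amplified RNA was in Cy3 on the soleus and FDB arrays and in Cy5 on the crossed ones. Of the 12 spots without a probe, the 9 outside rows 7 to 9 of column 1 had median un-amplified integrals of 0.0304 to 0.107 (units of 1e6). Most were at 0 in the amplified channel. On the first crossed array those at column 1, rows 1 to 3 were brighter in un-amplified RNA, reaching 1.04. When the median of these 9 spots was subtracted, Csrp3 and the feature of probes 97 to 102 were the 2 calls left of 20 tested. Pln could not be fitted, and the SE differed by feature in that fit. The log2 effects of Tnni2, Myh7 and Myh6 were then 2.66, 1.96 and -1.53, against 2.89, 2.27 and -1.77 before. Those of Acta1, Mb and Tnnc1 were 0.79, 0.84 and 1.12, and that of Myh4, not called, rose from 0.94 to 2.11. The part of this background in the effects of dim features was not tested otherwise.

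**Figure D4:**
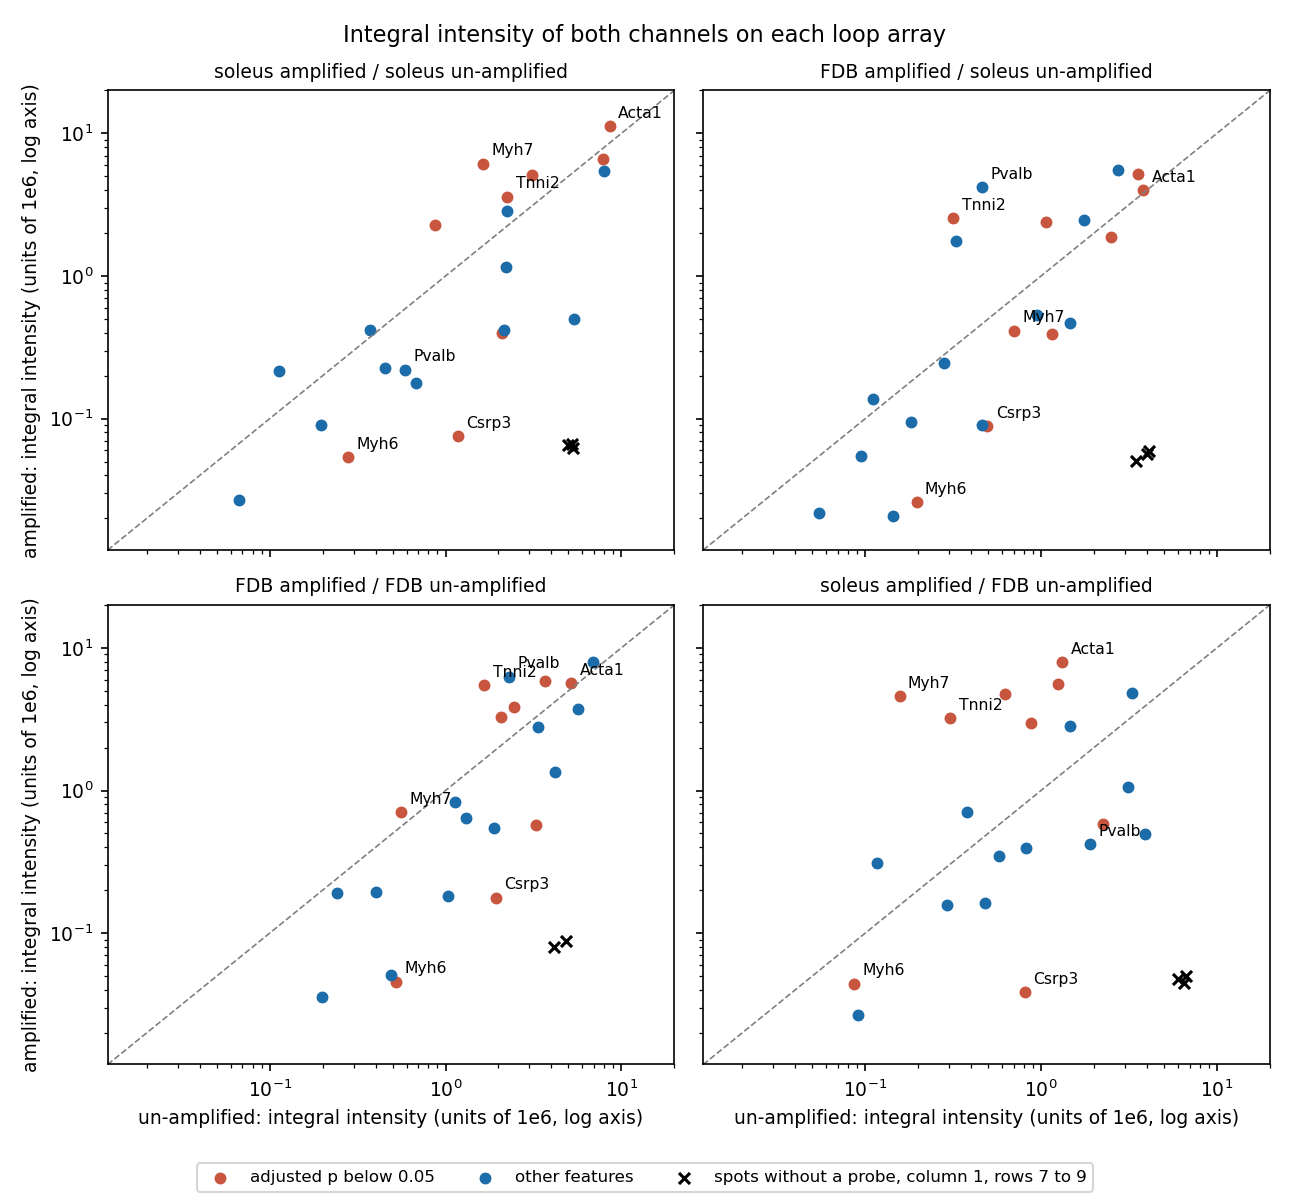
Mean integral intensity of the usable spots in the amplified channel (vertical, units of 1e6, log axis) against the un-amplified channel (horizontal, units of 1e6, log axis) for every feature on each loop array, with called features in red. Crosses are single spots without a probe at column 1, rows 7 to 9, which lie between 3.49 and 6.67 in un-amplified RNA. On the FDB array 1 of them is at 0 in amplified RNA and is not drawn. Points above the dashed line are brighter in amplified RNA.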

How the data were processed

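For the loop arrays the authors deposited integral intensity per spot and channel, a background intensity, a median pixel ratio, the fraction of unsaturated pixels and a letter per spot. The integral intensity was 0 where a channel was marked other than usable, and was taken as already background-subtracted. No source used here names the software. The deposited series table holds ratios of Cy3 over Cy5 scaled by 1 factor per array. These ratios matched the integral ratios of Cy3 over Cy5 in 100% of table values, which settled the dye of each channel and placed 130 of 132 probes on the grid of 9 by 16 spots. The other 2 were placed by their block.

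Spots usable in both channels were kept. Log2 ratios were averaged over spots and centred on the median feature of each array. Loess served as an alternative, because a large share of so few features may differ. The effect of amplification was fitted with limma 3.58.1 in R 4.3.3, two-sided, with muscle and dye as further terms and adjustment over 21 features. The dye effect was the mean log2 ratio of the 4 arrays. The steps were run on simulated data with equal effects in both muscles. Noise there was smaller than the pooled residual variance of these arrays, 1.07, so that run does not show how the test performs here. The rule was to name every feature, and the lists, members and tests were chosen with earlier results of these data known. Of the 20 named features 19 matched a mouse gene, and CAMTA1 did not. No probe sequences were used here.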

Additional observations from a re-analysis of the deposited data

Results flagged for a closer look

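The amplification effect pointed opposite ways in the soleus and the FDB for 7 features, and this difference was not tested, since each muscle had 1 array. The FDB minus soleus difference was -3.12 for Ldhb, 2.55 for Ppp3cb, 2.44 for Pvalb, -2.41 for Tnni1, 1.42 for Myh1, -0.49 for Calm2 and 0.24 for Mylpf, in log2 units. For Calm2 the effects were opposite in 4 of 13 alternatives, for Mylpf in 9 and for Myh1 in 10.

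Spots without a probe gave signal in a part of the data that the comparisons do not use. The 3 spots at column 1, rows 7 to 9 were bright in un-amplified RNA on every array, whichever dye it carried. Un-amplified exceeded amplified integrals there 79.5-fold on the soleus array, 53.3-fold on the FDB array (2 usable spots), and 70.1-fold and 135-fold on the crossed arrays. On the second crossed array their mean in un-amplified RNA was above that channel of all 100 usable probe spots. The spots at column 1, rows 1 to 3 were also bright in un-amplified RNA on the first crossed array, reaching 1.04 (units of 1e6). No source used here says what was spotted at either place.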

How the results depend on the processing

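Of the 9 calls, the same 9 remained with median pixel ratios, the median of the spots, without saturated spots or without a dye term, and 7 with mean centring (4 higher, 3 lower). Leaving out spots at or below 0 changed nothing, since no usable spot lay there. Fewer calls came with no centring (4, of which 1 higher and 3 lower) and with the authors' table ratios (2, both lower). Unusable spots kept gave 5, with CAMTA1 among them on partly substituted values. There were 4 of 19 tested without spots below the 5th percentile, 0 of 21 under loess and 0 of 21 without pooling of variance. With no centring the median feature moved by -0.63. Spots fitted singly with a consensus correlation of 0.829 gave 15 calls; spots of 1 array are not replicates. After seeing the data, subtraction of the spots without a probe gave 2 calls and leaving out grid rows 1 to 3 gave 8. Leaving out 1 array gave 1 to 12. Loess lowered the features past 2-fold to 8 in the soleus and 8 in the FDB. The cause of these changes was not tested.

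The 9 called features kept their direction in every alternative fitted. Direction turned for features without a call. Loess gave Mylpf -1.0, Tnni1 -0.51, Tnnc2 -0.11, Pln 0.093, Ldhb 0.23, Ppp2ca 0.46 and Calm2 0.18. Mylpf was -0.55 with no centring, -0.11 with mean centring, -0.69 with the table ratios, -0.046 without spots below the 5th percentile, -0.57 after subtraction and -0.010 without grid rows 1 to 3. Tnni1 was -0.28 with no centring, -0.41 with the table ratios and -0.26 after subtraction, and Calm2 0.020 with unusable spots kept. With 1 array left out and a dye term, Myh1 ran from -0.59 to 0.12, Tnni1 from -0.25 to 0.95 and Ldhb from -1.06 to 0.50. Without a dye term, Myh1 ran from -0.78 to 0.19 and Ldhb from -0.74 to 0.30. The fits without a crossed array and with a dye term were not run, since the soleus and FDB arrays alone cannot separate dye from amplification. The ratios pair amplified with un-amplified RNA within each array. No further pairing across arrays was possible because each loop array is a group of its own and the labels carry no replicate numbers. Dim features (Pln, Myh6) are limited by signal over background. CAMTA1 is so in its amplified channel, as is Csrp3 on the second crossed array.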
